A study of Caenorhabditis elegans with 2 samples.

Results

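Autosomal coding-sequence peaks are the intervals called from CEH-16 ChIP-seq whose summit lay inside the protein-coding part of an exon on an autosome. The summit is the base of highest signal in a peak. These peaks were taken from the list that the authors called on both replicates together. That list was labelled as peaks and background, the input for the authors' reproducibility step, and 214 of its 30000 entries passed. Most of its entries are therefore not established CEH-16 sites. A summit counted when it fell in a coding sequence (CDS) of a protein-coding transcript of the Ensembl annotation of WBcel235, the genome build also called ce11. This gave 4365 peaks among the 24218 autosomal peaks, or 18.02% (exact 95% Clopper-Pearson interval 17.5 to 18.5), out of 30000 peaks in the pooled list. The remaining autosomal summits were assigned to introns (8382), 3' UTRs (1153), 5' UTRs (444) or bases outside protein-coding transcripts. The last were within 1000 bp of a protein-coding gene start (4243) or farther away (5631), and they can lie in genes of other kinds.

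Chromatin came from whole L3 larvae, a late larval stage, of the Caenorhabditis elegans strain OP82, whose genotype is unc-119(tm4063) III; wgIs82. The strain stably expresses CEH-16 with a GFP-FLAG tag at its C terminus, and the larvae were of mixed sex. Whole animals were used, so every value is an average over all of their cells. The only group held 2 biological replicates, both with the same allele and transgene, and nothing was contrasted with it. The lists gave no read counts, so the sequencing depth was unknown, and every interval printed here covers the counting of peaks only.

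CEH-16 is the worm homologue of engrailed, a homeodomain transcription factor of animal patterning. In C. elegans it is known from the seam cells, a lateral row of epidermal stem-like cells that divide at each larval stage. Homeodomains of this class bind words built on TAAT in isolated DNA. Transcription factor binding is usually looked for outside coding exons, but peak lists of many factors also hold summits inside them.

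The sequences around the summits of some of the stronger peaks show what kind of DNA was involved. The first set holds 101 bases centred on the summit, read 5′ to 3′ on the coding strand of the host gene from the RefSeq copy of WBcel235 (ce11), with coding bases in capitals. They stand for the peaks that passed the authors' reproducibility threshold (F55A11.6, hsp-1 and ram-2), for the 3 next in signal on chromosomes II to V (mak-1, C37C3.1 and best-18), and for a gene with 6 coding peaks (hsp-90).
F55A11.6, chrV:11782859-11782959, plus strand: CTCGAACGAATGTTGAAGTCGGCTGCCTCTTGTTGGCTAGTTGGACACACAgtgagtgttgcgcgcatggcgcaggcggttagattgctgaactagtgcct
hsp-1, chrIV:17280304-17280404, plus strand: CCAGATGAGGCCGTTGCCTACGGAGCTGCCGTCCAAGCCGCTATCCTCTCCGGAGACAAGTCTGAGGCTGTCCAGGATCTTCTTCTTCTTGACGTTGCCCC
ram-2, chrII:11016435-11016535, minus strand: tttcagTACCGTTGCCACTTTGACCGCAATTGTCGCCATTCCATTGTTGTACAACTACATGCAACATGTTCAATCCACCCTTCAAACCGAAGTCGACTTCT
mak-1, chrII:8746435-8746535, plus strand: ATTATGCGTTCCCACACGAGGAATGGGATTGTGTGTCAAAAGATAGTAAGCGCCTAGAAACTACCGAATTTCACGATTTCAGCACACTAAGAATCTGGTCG
C37C3.1, chrV:7857978-7858078, plus strand: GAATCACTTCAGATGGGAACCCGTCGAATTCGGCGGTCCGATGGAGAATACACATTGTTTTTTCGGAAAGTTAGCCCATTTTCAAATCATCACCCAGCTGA
best-18, chrIII:10214646-10214746, plus strand: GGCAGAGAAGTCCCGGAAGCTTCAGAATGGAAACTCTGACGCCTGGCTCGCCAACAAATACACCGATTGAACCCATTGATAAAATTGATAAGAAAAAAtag
hsp-90, chrV:14687847-14687947, plus strand: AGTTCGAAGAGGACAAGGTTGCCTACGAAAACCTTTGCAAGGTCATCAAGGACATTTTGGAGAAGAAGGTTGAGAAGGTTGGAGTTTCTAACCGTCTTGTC
Of these 7 windows, those of hsp-1, mak-1, C37C3.1 and hsp-90 were coding in all 101 bases. The F55A11.6 summit sat at an exon end, with 51 of the 101 bases coding.

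The coding peaks were mostly weak, and the stronger a peak was the less often its summit was coding. Signal here is the authors' own value per peak, of a scale that was not stated, and it was used only to rank and describe peaks within a list. The 4365 peaks ran from a signal of 11.5 to 67.5, with a median of 14.9, an upper quartile of 17.7 and a 90th percentile of 21.5, while the 24218 autosomal peaks had a median of 15.1 and reached 131. The list that the authors thresholded by the irreproducible discovery rate, a measure of how well replicate ranks match, held 4 of the 4365, or 0.0916%. The background was 0.603% of all autosomal peaks, 146 of 24218. Of those 146, 80 lay outside protein-coding transcripts near a gene start.

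Across ranks the coding share climbed from the strongest peaks to the weakest. Ranks run over the whole pooled list, with 1 for the highest signal. The coding peaks ranked 1 to 214 are the same 4 as in the thresholded list, so these counts are not separate results. Coding summits made up 2.74% of the autosomal peaks ranked 1 to 214 (4 of 146), 9.34% of those ranked 215 to 1000 (61 of 653), 16.1% of those ranked 1001 to 5000 (517 of 3207), 18.4% of those ranked 5001 to 15000 (1478 of 8042) and 18.9% of those ranked 15001 to 30000 (2305 of 12170). At no rank did they reach the 25.6% of autosomal bases that are coding, 21.2 of 82.6 Mb. The same order was seen in each replicate's own list. In replicate 1 the share was 3.33% of the autosomal peaks among the 214 strongest, 9.35% among the 1000 strongest and 21.8% in the whole list (3373 of 15460). In replicate 2 these shares were 6.29%, 12.0% and 18.8% (4548 of 24175). The replicate 2 list stops at 30000 peaks and the replicate 1 list at 19150, so the whole-list shares reach to different depths.

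**Figure D1:**
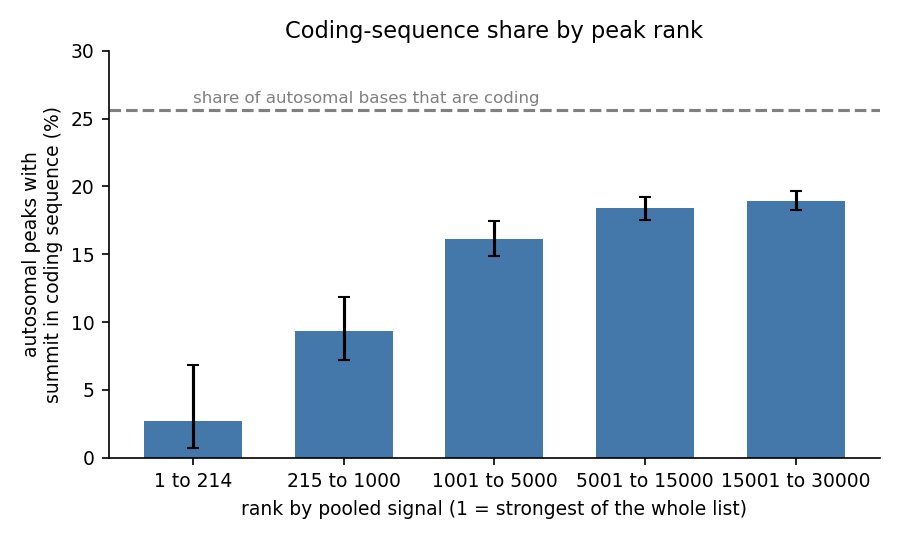
Share of autosomal peaks whose summit was coding (y axis, %), for 5 ranges of rank by pooled signal (x axis, 1 = strongest), with exact 95% intervals as bars and the coding share of autosomal bases as a dashed line. The bars rise from 2.74% to 18.9% and all stay under the line at 25.6%.

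The rule put a sharp line through a continuous measure. All 4365 intervals were 350 bp wide, and the median interval was coding in 67.4% of its bases. Only 376 intervals (8.61%) were wholly coding, and 922 (21.1%) were coding in under 50% of their bases. Of the members, 590 had a summit within 10 bp of the edge of a coding segment, and 585 autosomal summits that missed the rule lay within 10 bp of one. For 4074 members (93.3%) the summit was coding in every protein-coding transcript that spanned it, and 1 summit was coding in 2 genes. Neighbouring peaks seldom overlapped: 163 members (3.73%) shared bases with another one, and the 4365 formed 4282 separate blocks.

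The 4 coding peaks of the thresholded list lay in kin-14, F55A11.6, hsp-1 and ram-2. The strongest belonged to kin-14, a predicted tyrosine kinase gene, and spanned chromosome I 7079263 to 7079612 with a pooled signal of 67.5. Its signal was 30.4 in replicate 1 and 36.4 in replicate 2, and its summit was the first coding base. In F55A11.6 (V 11782734 to 11783083) the pooled signal was 52.7, with 25.3 in replicate 1 and 25.7 in replicate 2, at coding exon 7 of 8. The peak of hsp-1, which encodes the constitutive chaperone Hsc70, lay on IV 17280179 to 17280528 in coding exon 3 of 4, with a pooled signal of 50.1. Its signal was 18.8 in replicate 1 and 34.2 in replicate 2. In ram-2 (II 11016310 to 11016659) the pooled signal was 44.8, with 21.9 and 22.9, in the last of 2 coding exons. Each of the 4 was present in both replicates, at signals well above the medians of 8.40 and 11.1 for coding peaks found in both. The list was chosen on the match of replicate ranks, so this is no separate support. All 142 other autosomal peaks ranked 1 to 214 were likewise in both. A snoRNA gene lay within 200 bp of the summits in F55A11.6 (F55A11.10) and hsp-1 (F26D10.24), and whether these genes had a part in the signal was not tested.

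The thresholded list stopped at a signal of 43.6, and the next coding peaks beneath it were not separated from it by any gap. They were in mak-1, a MAPK-activated protein kinase gene (42.6), C37C3.1 (41.8), tent-5, a terminal nucleotidyltransferase gene (41.7), best-18, a bestrophin gene (41.0), and Y39B6A.43 (40.9). Their replicate signals were mixed. The mak-1 summit had a replicate 2 match at 37.0 and no replicate 1 match within 200 bp, and best-18 likewise had 33.0 in replicate 2 alone. C37C3.1 had 15.9 in replicate 1 and 21.8 in replicate 2, tent-5 had 16.9 and 31.0, and Y39B6A.43 had 9.91 and 31.4.

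Down to a pooled signal of 32.8, the 25 strongest coding peaks lay in 24 genes of unlike function. Both replicates held 16 of the 25 and replicate 2 alone held the other 9. Beyond those already named, the hosts were snt-4 (a synaptotagmin), C14B1.2, tps-2 (trehalose 6-phosphate synthase, with 2 of the 25), R151.1, spe-9 (a sperm surface protein), emb-8 (NADPH-cytochrome P450 reductase), T01H3.5, dhc-4 (a dynein heavy chain), ptr-12 (a patched-related protein), K04C2.2, let-526 (a chromatin remodelling subunit), sqst-1 (the p62 autophagy receptor), F25B5.5, mix-1 (a condensin subunit) and jun-1 (an AP-1 factor). In dhc-4 the signals were 28.3 in replicate 1, 35.7 in replicate 2 and 35.2 in the pooled list. In emb-8 the replicate signals were 8.19 and 26.1, and in tps-2 the stronger peak had 14.8 and 8.72. Either replicate could rank a peak higher in its own list (8723 and 319 in emb-8, 812 and 26057 in tps-2). Of the 25, 8 summits were in the first 10% of the coding sequence and 7 in the last 10%, and 5 lay within 200 bp of a small RNA gene. Over all members, 30 (0.687%) lay that close to a small RNA gene (20 tRNA, 7 snoRNA, 2 miRNA and 1 snRNA genes), against 1.39% of all autosomal peaks (336), and these 30 had a median signal of 18.7 against 14.9 for the rest.

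Replicate support was counted as a summit of that replicate's own list within 200 bp of the pooled summit. The same replicate summit could support neighbouring pooled peaks, as for the tent-5 peaks of signal 41.7 and 15.7, which share both. The counts and intervals take no account of such sharing. Replicate 1 supported 1572 coding peaks (36.0%) against a background of 37.1% of all autosomal peaks, and replicate 2 supported 2863 (65.6%) against 67.3%. Both replicates supported 715 (16.4%, interval 15.3 to 17.5) against 19.5%. A further 857 were matched in replicate 1 alone, 2148 in replicate 2 alone and 645 (14.8%) in neither. For each replicate alone the coding peaks were thus near the background, and most lacked one replicate. A summit among the 1000 strongest of both replicate lists was found for 9 coding peaks (0.206%) and for 160 other autosomal peaks (0.806%).

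Where both replicates held a coding peak, their signals tracked each other loosely. The medians over the 715 were 8.40 in replicate 1, 11.1 in replicate 2 and 19.5 in the pooled list. Spearman's rho between the replicates was 0.14 and Pearson's r on the log2 scale 0.23, over 715 peaks. For the other 3996 autosomal peaks found in both, the values were 0.23 and 0.37. All of these points come from the same pair of libraries and carry the same lower limits of each list, and some share a replicate summit. The correlations are therefore given as a description.

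**Figure D2:**
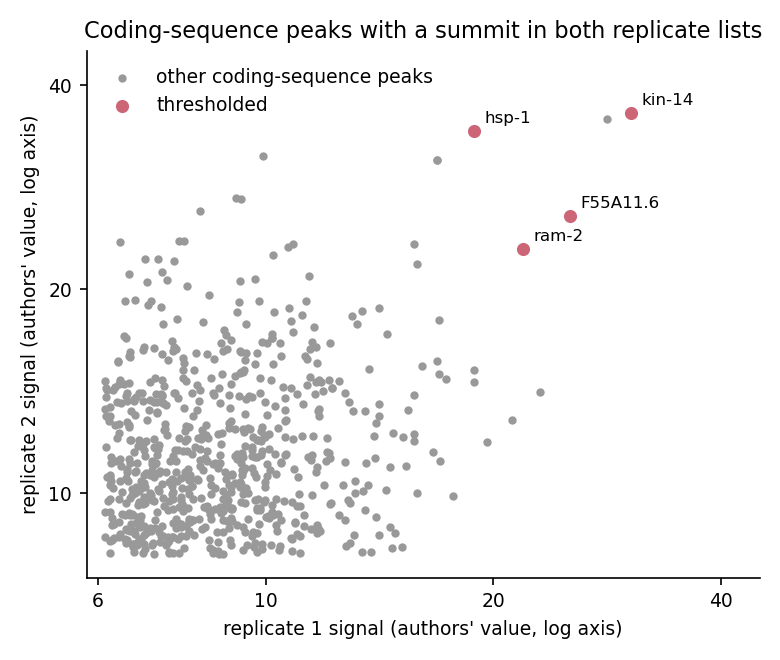
Signal in replicate 1 (x axis, log scale) against signal in replicate 2 (y axis, log scale) for the 715 coding peaks with a summit in both lists, in the authors' own units, with the 4 thresholded peaks coloured and named. Most points form a cloud near the lower limits of both lists, and the 4 thresholded peaks lie at 18.8 or more in replicate 1 and 22.9 or more in replicate 2.

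Among strong peaks just beneath the threshold, coding summits lacked replicate 1 more often than other summits did. Of the 61 coding peaks ranked 215 to 1000, 39 had a replicate 1 summit within 200 bp, or 63.9% (interval 50.6 to 75.8). Of the 592 other autosomal peaks in that range, 530 had one, or 89.5% (interval 86.8 to 91.9). Replicate 2 supported 96.7% of the coding peaks and 97.3% of the others. Replicate 2 alone supported 22 of the 61, and the median replicate 2 signal was 26.9 in these 22 and 18.8 in the 37 found in both. All were chosen by pooled signal, with pooled medians of 32.1 and 31.8, so this difference is no separate result. The class nearest to the coding peaks was the 3' UTR, with replicate 1 support of 80.8% (21 of 26, interval 60.6 to 93.4). The 5' UTR peaks had 87.0% (20 of 23, interval 66.4 to 97.2), and both intervals overlapped that of the coding peaks. Intronic peaks had 91.4% (169 of 185).

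The gap was present under each setting tried, though it was picked out after the values were seen and the difference was not tested. With summits matched within 50 bp the replicate 1 shares were 42.6% and 63.7%, and within 500 bp they were 68.9% and 92.1%. Without peaks beside small RNA genes they were 65.5% (38 of 58) and 89.5%. Chromosome by chromosome, coding peaks had 81.8% against 88.5% for the others on I, 64.7% against 89.2% on II, 46.2% against 91.0% on III, 57.1% against 92.5% on IV and 69.2% against 87.2% on V, with 7 to 17 coding peaks on each. The gap narrowed and then turned with falling rank. Replicate 1 supported 57.6% of coding and 64.0% of other peaks ranked 1001 to 5000, then 42.1% and 39.8% at 5001 to 15000, and 26.4% and 24.5% at 15001 to 30000.

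**Figure D3:**
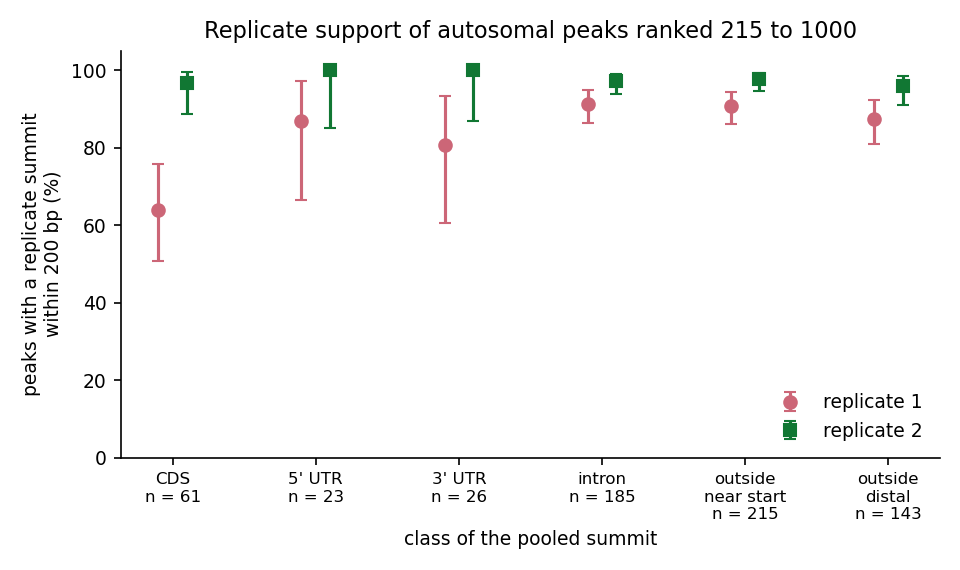
Share of autosomal peaks ranked 215 to 1000 (y axis, %) with a replicate 1 summit (circles) or a replicate 2 summit (squares) within 200 bp, by the class of the pooled summit (x axis, with the number of peaks), with exact 95% intervals. Coding peaks have the lowest replicate 1 share, 63.9% of 61, while replicate 2 shares are 95.8% or higher in every class.

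Along the coding sequence, summits gathered at the start. Positions were measured from the first coding base of the longest coding transcript that held the summit. The first 10% of the coding sequence held 629 summits (14.4%, interval 13.4 to 15.5) against 10.2% of coding bases, and the share was lowest from 60% to 70% of the way, at 7.95% (347 summits). The last 10% held 499 (11.4%, interval 10.5 to 12.4) against 10.1% of bases. Part of this went with how much of the surroundings was coding, since 21.1% of members but 15.2% of coding bases had under 50% coding bases in the 350 bp around them. Among the 3443 members with at least 50%, the first 10% held 9.85% (interval 8.87 to 10.9) against 6.98% of such bases, and the last 10% held 9.06% (interval 8.12 to 10.1) against 8.38%. In such surroundings the share of bases thus lay under the interval at the start and inside it at the end. These intervals treat peaks as independent, the split was added after seeing the data, and the difference was not tested. When peaks were chosen by having 50% of the interval coding in place of the summit, the first 10% held 9.64%.

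**Figure D4:**
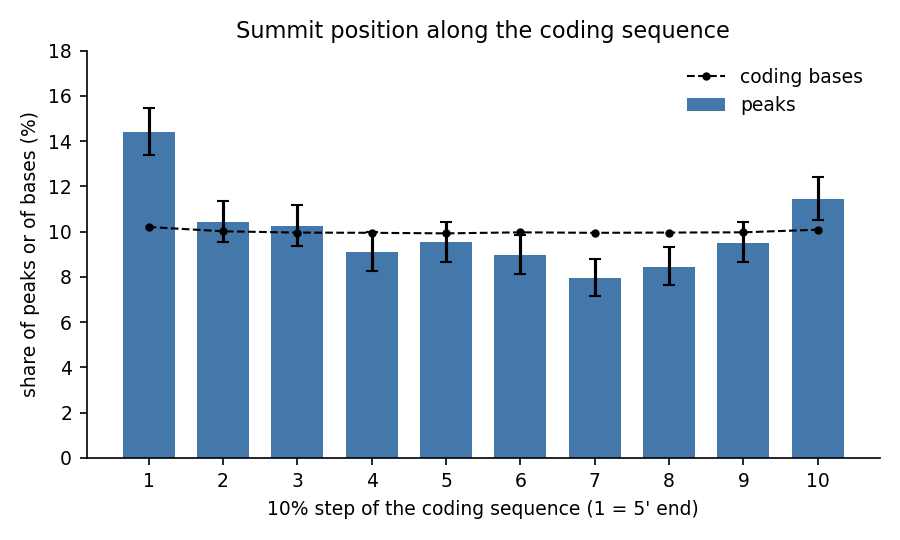
Share of the 4365 coding peaks (bars, y axis, %, with exact 95% intervals) and of autosomal coding bases (dashed line) in each step of 10% along the coding sequence (x axis, 1 = 5' end). The first bar stands at 14.4% against 10.2% of bases, and the lowest, from 60% to 70%, at 7.95%.

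Exon order and distance to gene starts showed the same lean. First coding exons held 656 summits (15.0%) against 11.4% of coding bases, internal ones 2942 (67.4%) against 71.9%, last ones 738 (16.9%) against 15.7%, and genes with a single coding exon 29 (0.664%) against 1.01%. A protein-coding gene start lay within 1000 bp of 2116 summits (48.5%, interval 46.98 to 49.97) against 42.8% of coding bases. For 1785 of them (40.9%, against 35.3% of bases) it was the start of the host gene itself. For 331 (7.58%, against 7.43%) it was the start of another gene, a share close to that of the bases. In the last 10% of the coding sequence, 128 of the 499 summits (25.7%) lay that close to another gene's start. Hosting exons were short, with a median of 201 bases against 261 over all coding bases.

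Base composition at the coding summits was lower in G and C than coding sequence at large. Over the 200 bp to each side of a summit, GC made up 37.0% ± 4.77 (SD, n = 4365 peaks) against 38.9% over all coding bases and 35.5% over all autosomal bases, while the other classes of peak averaged 33.7% to 36.0%. In the 290 members whose window was wholly coding it was 41.6%, against 43.7% for coding bases with such windows. By rank, the mean was 38.4% at ranks 215 to 1000 and 36.9% at ranks 15001 to 30000. The 4 thresholded peaks varied, with 36.9% in kin-14, 40.6% in ram-2, 43.6% in F55A11.6 and 48.4% in hsp-1.

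Over all members, engrailed-type words were slightly more frequent at coding summits than in coding sequence, though not among the strongest peaks. TAATTA, unlike TAATTG, was less frequent at coding summits than in every other class of peak. The words searched were TAATTA and TAATTG, their core TAAT, and the unrelated words GAGAGA and CGCGCA, on both strands within 50 bp of the summit, and TAAT is part of both TAATTA and TAATTG. The word TAATTA was found at 131 coding summits (3.0%, interval 2.52 to 3.55), against 2.35% of windows centred on every coding base and 4.05% to 6.59% in the other classes of peak, the lowest of them the 5' UTR peaks, whose interval (2.42 to 6.33) overlapped. TAATTG was found at 8.75% against 6.74% of coding bases and 8.48% to 9.89% in the other classes, and TAAT at 57.8% against 51.8%. GAGAGA stood at 5.38% against 5.28%, and CGCGCA at 0.848% (37 summits) against 0.708%, with 3.44% for peaks outside genes near a start. The TAAT words are rich in A and T, and no unrelated word of like composition was counted. Coding summits were lower in GC than coding sequence and higher than the other classes of peak. Whether base composition accounts for the differences in these words was not tested. In windows that were coding throughout, TAATTA was found in 28 of 1864 members (1.502%) and 1.09% of such bases, and TAATTG in 7.30% and 5.94%. Of the 131 members with TAATTA, 80 had no occurrence made wholly of coding bases, whereas 276 of the 382 with TAATTG had one.

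The strongest windows with TAATTA and with CGCGCA on chromosomes II to V show where the words lay. Capitals mark the word or its reverse complement, and the letters are again from RefSeq WBcel235 (ce11), 5′ to 3′ on the coding strand of the host. A match describes the letters and says nothing of binding.
R151.1, TAATTA, chrIII:7220321-7220421, plus strand: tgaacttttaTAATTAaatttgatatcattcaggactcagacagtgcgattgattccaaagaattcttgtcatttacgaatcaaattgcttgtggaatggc
tasp-1, TAATTA, chrIII:10759745-10759845, plus strand: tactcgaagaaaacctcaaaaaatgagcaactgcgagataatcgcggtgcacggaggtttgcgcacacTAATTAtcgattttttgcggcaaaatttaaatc
cec-1, TAATTA, chrIII:8426309-8426409, plus strand: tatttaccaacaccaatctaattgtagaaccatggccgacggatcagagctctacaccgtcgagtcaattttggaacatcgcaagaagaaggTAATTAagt
gei-1, CGCGCA, chrIII:3345986-3346086, plus strand: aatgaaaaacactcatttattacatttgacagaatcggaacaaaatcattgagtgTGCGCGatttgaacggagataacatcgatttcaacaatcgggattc
srd-19, CGCGCA, chrV:13428540-13428640, minus strand: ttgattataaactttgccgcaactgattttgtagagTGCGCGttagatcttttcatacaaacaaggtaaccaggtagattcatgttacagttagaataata
The R151.1 peak had a pooled signal of 37.6, with 9.15 in replicate 1 and 27.2 in replicate 2, in coding exon 11 of 13. The peak in tasp-1 (25.8, with 8.79 and 16.2) lay in coding exon 1 of 8. The peak in cec-1, a chromodomain protein gene (24.1, with 10.8 and 9.71), lay in coding exon 1 of 4. The gei-1 and srd-19 peaks (23.5 each) were found in replicate 2 alone. The thresholded F55A11.6 window, printed first above, also holds CGCGCA, in its non-coding bases.

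By host, the 4365 summits fell in 3721 of 17242 autosomal protein-coding genes (21.6%). A single summit was found in 3171 of them, 2 summits in 481, 3 in 51, 4 in 13, 5 in 3 and 6 in 2. Hosts had a median coding length of 1257 bases against 933 for the other genes. Longer genes held a summit more often, 13.4% of genes under 1 kb, 28.1% from 1 to 3 kb, 46.8% from 3 to 10 kb and 62.5% over 10 kb. Per coding base the order was the opposite, with 23.8, 21.5, 15.7 and 8.57 summits per 100 kb of coding sequence in those classes and 20.6 over all. On the chromosomes, the density was 185 summits per Mb of coding sequence on I (731 summits), 206 on II (851), 210 on III (745), 213 on IV (842) and 214 on V (1196). The central 1 of 3 equal parts of each autosome held, in sum, 43.9% of the summits and 40.3% of the coding bases.

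The genes with the most summits ranged widely in coding length and function. The chaperone gene hsp-90 had 6 summits in 2106 coding bases, and its 6 intervals formed 2 blocks of overlapping peaks, so that they are not separate sites of equal standing. The strongest of the hsp-90 peaks (V 14687722 to 14688071) had a pooled signal of 31.3, with 14.4 in replicate 1 and 17.2 in replicate 2, and it was the only one of the 6 found in both. The other gene with 6 was cdh-3, a Fat-like cadherin gene of 10083 coding bases, whose best peak reached 18.5. Then came dys-1 (dystrophin), ttn-1 (titin) and unc-77 (a sodium leak channel) with 5 each. The dys-1 peaks were all weak, with a best signal of 15.2 and support from replicate 2 alone. Of the 13 genes with 4 summits, the first 5 in order of symbol were T16G12.1, Y106G6G.2, cpna-2 (a copine-domain muscle protein), dcr-1 (Dicer) and dig-1 (a giant extracellular matrix protein). Their best signals ran from 16.01 in dcr-1 to 29.7 in T16G12.1.

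**Figure D5:**
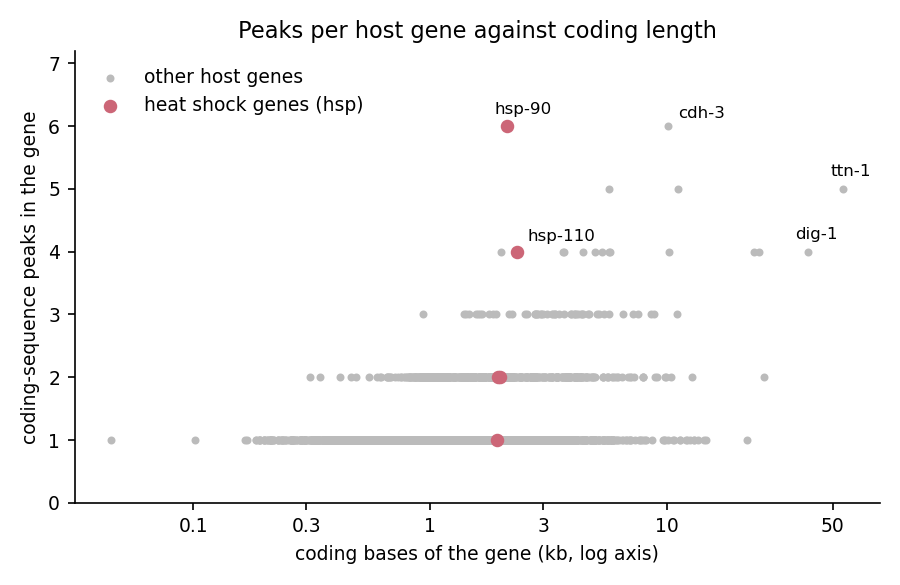
Number of coding peaks in each of the 3721 host genes (y axis) against its coding length (x axis, kb, log scale), with heat shock genes coloured. The gene hsp-90 reaches 6 peaks in 2106 coding bases, as many as cdh-3 in 10083.

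Among 18 gene families and lists, the heat shock genes held the densest coding peaks. They had 15 summits in 5 of 17 genes, or 77.1 per 100 kb of coding sequence against 20.6 over all genes. Their median signal was 21.9 against 14.9 over all members. The density rests largely on hsp-90, whose 6 summits lay in 2 blocks of overlapping peaks, and on hsp-110. By genes, 29.4% of the list held a summit against 21.6% of all autosomal protein-coding genes. Both replicates held 7 of the 15. Besides hsp-1 and hsp-90, the hosts were hsp-110 with 4 summits (best signal 27.3, with 6.60 and 21.1 in the replicates), hsp-6 with 2 (best 24.9) and hsp-70 with 2 (best 18.8, with 12.5 and 9.30). Near-identical copies among chaperone genes can share reads, and how the authors placed such reads was not stated.

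Lists of regulators and signalling genes lay on both sides of the average density of 20.6. Of 23 seam and epidermal regulators, 4 hosted 1 summit each (12.5 per 100 kb, median signal 21.6). The strongest were in nhr-23, a moulting regulator (24.4, with 11.8 and 14.6), and in elt-1, the GATA factor of epidermal fate (23.8, with 17.2 in replicate 1 alone). The peak in eor-1 had 19.4, with 9.33 and 10.8, and that in blmp-1, the Blimp-1 homologue, had 13.5, with 14.0 in replicate 2 alone. Homeobox genes with a ceh name held 16 summits in 14 of 45 genes (34.6 per 100 kb, median 14.8), led by ceh-38 (17.5), ceh-2 (17.2), ceh-62 (17.2) and ceh-32 (15.6). Nuclear hormone receptor genes held 78 summits in 71 of 246 (26.7 per 100 kb, median 14.3), led by nhr-262 (30.9, with 12.9 and 8.43), nhr-37 (29.7), nhr-80 (25.9) and nhr-61 (24.4). The hedgehog-related and patched-related genes, many of which act in cuticle and moulting, held 22 in 18 of 72 (19.2 per 100 kb, median 17.2), led by ptr-12 (34.6, with 18.9 and 14.6), grl-4 (27.8), grl-3 (23.7) and ptr-8 (20.7).

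The 6 lists of structural, motor, yolk and housekeeping genes each lay below 20.6 per 100 kb. Density fell with gene length, to 8.57 per 100 kb in genes over 10 kb, and no list was matched for length. For lists of long genes, such as the muscle and matrix list, 20.6 is therefore not a matched reference. The cuticle collagen list was taken by gene symbol (col, dpy, rol, sqt and bli), so it can hold genes that are not collagens. Genes with other symbols, ram-2 among them, were not counted in it. The list held 26 summits in 23 of 161 genes (13.6 per 100 kb, median 13.8). Its strongest, in col-125 (26.0), col-120 (24.97) and rol-8 (24.6), were all in the first coding exon and in both replicates. The peak in col-128 (23.8) was in coding exon 4 of 5 and in replicate 2 alone. Ribosomal protein genes held 5 in 5 of 76 (13.5 per 100 kb, median 13.3), in rps-19 (17.7), rpl-3 (15.7), rps-18 (13.3), rps-13 (13.1) and 1 other. Histone genes held 1 summit in 46 genes (6.03 per 100 kb), in his-72, a histone H3.3 gene (16.8), and many histone genes are near-identical copies. The list of large muscle and extracellular matrix genes held 26 in 14 of 24 (7.05 per 100 kb, median 16.2), led by anc-1, a giant nuclear anchorage protein (32.6, with 16.1 and 15.4), let-805 (26.2), unc-89, the obscurin homologue (24.3), and dig-1 (23.9). Kinesin and dynein genes held 8 in 6 of 23 (10.04 per 100 kb, median 16.2), led by dhc-4 (35.2), unc-104, an axonal transport kinesin with 2 (23.9 and 23.3), and klp-6 (16.3). The single autosomal vitellogenin gene, with 4.95 kb of coding sequence, held 0, and 1 gene is too few to place that list.

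The remaining families had densities of 16.2 to 28.03 per 100 kb. Chemoreceptor genes held 338 summits in 303 of 1320 (25.6 per 100 kb, median 14.4), led by srw-111 (32.3, with 11.4 and 20.9), srh-61 (29.6), srh-271 (28.5) and srd-18 (28.5), each in both replicates. F-box genes held 65 in 59 of 299 (22.1 per 100 kb, median 14.5), led by fbxb-6 (22.9), fbxa-76 (22.4), fbxa-213 (21.8) and fbxb-81 (21.6), each in replicate 2 alone. The MATH and BTB genes held 27 in 22 of 90 (27.6 per 100 kb, median 14.2), led by math-14 (21.0), btb-22 (20.4), bath-19 (19.6) and bath-46 (18.7). C-type lectin genes held 40 in 35 of 234 (16.2 per 100 kb, median 15.1), led by clec-40 (26.5), clec-4 (24.8), clec-59 (23.1) and clec-261 (19.2). The UDP-glucuronosyl transferases held 28 in 25 of 63 (28.03 per 100 kb, median 14.5), led by ugt-22 (23.9), ugt-63 (21.8), ugt-36 (21.7) and ugt-58 (20.6). Cytochrome P450 genes held 19 in 18 of 67 (19.3 per 100 kb, median 15.4), led by cyp-31A5 (20.8), cyp-33C7 (18.2), cyp-35A4 (17.2) and cyp-13A12 (16.9). Neuropeptide and insulin genes held 9 in 9 of 106 (27.7 per 100 kb, median 17.6), led by ins-1 (23.1), nlp-18 (21.1), ins-31 (21.1) and nlp-47 (17.7). Members of several of these families are close in sequence, and their values carry the same limit on shared reads.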

How the data were processed

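CEH-16 ChIP-seq was deposited as peak lists for 2 biological replicates of 1 group, whose numbers the labels give. Chromatin was sonicated and the assemblies were ce10 and ce11, per the labels; the ce10 lists were not used here. Peaks were called for each replicate and on both together against a control (not analysed here), and the thresholded list holds those that passed the irreproducible discovery rate, per the provenance text of the deposit. Which aligner and caller were used is not given in the sources used here. For each peak the deposited signal is the authors' own value, of unstated scale. The pooled and replicate 2 lists stop at 30000 peaks, the replicate 1 list holds 19150 and the thresholded list 214. No read counts are given, so depth and its precision are unknown.

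Coordinates are on ce11 and 1-based. Genes came from Ensembl release 115 of WBcel235 and sequence from RefSeq. Summits were matched within 200 bp, GC was taken within 200 bp, words within 50 bp, gene starts within 1000 bp and small RNA genes within 200 bp. Coding bases were assigned to the longest coding transcript, and the values over all coding bases were the reference. Intervals are exact Clopper-Pearson at 95%. No test was run, since 1 group allows no contrast. The steps were tested on simulated data. Named genes were the thresholded members, the hosts of the 25 strongest, the 10 hosts with the most members, the 5 next to the threshold and up to 4 members per list by signal; genes named beside printed words, and the remaining heat shock genes, were chosen after their values were seen. The members and the 18 lists were chosen with earlier results of these data known. Gene families were taken by the prefix of the gene symbol, so they can miss genes of other names or hold unrelated ones. Alternatives covered the rule, the matching window and each replicate alone; after seeing the data, 3 were added for the position, GC and TAATTA results, and 1 set for replicate support at ranks 215 to 1000. Scripts ran on Python 3.11.15 with matplotlib 3.10.9, numpy 2.4.6, scipy 1.17.1 and pandas 2.3.3.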

Additional observations from a re-analysis of the deposited data

How the results depend on the processing

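Of 62 alternative values for the 10 summary results, 36 stayed within counting error of the reported value (for counts, within 1.5 times) and 26 did not; where no construction is named, the cause was not tested. With only the 15000 strongest pooled peaks, which leaves fewer and stronger ones, there were 2060 coding peaks in 1878 host genes, 17.1% of autosomal peaks, with a median signal of 17.9, 30.2% in both replicates and a mean GC content of 37.2%. A summit coding in every transcript gave 16.8% of autosomal peaks. With 50% of the interval coding in place of the summit, the first 10% of the coding sequence held 9.64%, a gene start lay near 47.0%, GC was 37.5% and TAATTA was found at 3.93%. Without small RNA genes within 200 bp, the thresholded list held 2 coding peaks. Support by both replicates was 6.39% with summits within 50 bp, 22.98% within 500 bp and 14.8% with intervals overlapping by 50%. A gene start within 500 bp was found for 27.3%, and TAATTA within 100 bp for 7.17%. In settings added after seeing the data, the first 10% held 9.85% where 50% of the 350 bp was coding, and in wholly coding windows GC was 41.6% and TAATTA 1.502%. With each replicate left out in turn, the remaining list gave 18.8% to 21.8% coding summits, 12.5% to 13.8% in the first 10%, 44.5% to 48.0% near a gene start and 36.8% to 38.5% GC; the pooled median, support by both and the thresholded count cannot be given from 1 replicate. No paired analysis was possible because there is 1 group and no contrast. Unknown depth and the stops of the lists limit how far a missing replicate match can be read.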
